A study of Saccharomyces cerevisiae with 328 samples.

Results

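The genes described here are 4 pairs of ribosomal protein paralogs of budding yeast, RPS9A and RPS9B, RPS14A and RPS14B, RPS22A and RPS22B, and RPL7A and RPL7B. They are 8 of the 4922 genes with a value in the series, and all 8 had a value in each of the 328 strains. They were picked by name because one copy had differed from the reference strains, and from its partner, when a ribosomal protein gene was deleted. Their values in the ribosomal protein deletions therefore chose them, and are given as a description without a test.

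PolyA RNA of 328 Saccharomyces cerevisiae strains, each lacking 1 gene, was sequenced in exponential growth, with 1 library per strain. The labels name each strain only by its deleted open reading frame, and give no background genotype, clone number or culture. By the function of that gene, 18 strains lacked a small ribosomal subunit protein, 14 a large subunit protein, 7 a ribosome assembly factor, 3 a splicing factor, 5 an RNA decay factor and 5 a transcription elongation factor. A further 6 lacked a Mediator subunit, 6 a gene of Elongator or of the URM1 pathway, both of which modify transfer RNA, 17 a chromatin factor and 12 a mitochondrial function, and the strains in none of these classes were the reference. Every value is a log2 ratio of the deletion strain to the wild type strain, so it says how far a gene lay from wild type and not which copy of a pair is more abundant.

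Most yeast ribosomal proteins are made from a pair of genes that arose in an ancient genome duplication. The proteins of a pair are nearly identical, while promoters, introns and untranslated regions differ, so the copies can be controlled separately. Ribosomal protein genes hold many of the introns of yeast. For several of them surplus protein is known to lower its own mRNA by blocking the splicing of the transcript, with Rps14 acting on the RPS14B transcript and Rps9 acting on both RPS9 transcripts as worked examples. RPS22B is known to carry a cleavage site of the RNase III enzyme Rnt1 in an intron. Rps9 and Rps14 help to form the body and the platform of the small subunit, Rps22 binds the small subunit rRNA early in assembly, and Rpl7 is needed for the assembly of the large subunit.

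The coding sequences show how far a short read can separate the copies, so the 60 bases of each pair with the most differences are printed from the RefSeq R64 genome, 5′ to 3′ on the coding strand, with the bases that differ between the copies in capitals. RPS9A lies on chromosome XVI (404950 to 406044, plus strand) and RPS9B on chromosome II (604508 to 605508, plus strand). RPS14A lies on chromosome III (177500 to 178220, minus strand), and RPS14B (73787 to 74611, plus strand) is 298 bases from RPS22A (74910 to 75302, minus strand) on chromosome X. RPS22B lies on chromosome XII (856442 to 857317, plus strand), RPL7A on chromosome VII (364335 to 365996, minus strand) and RPL7B on chromosome XVI (173152 to 174702, plus strand). The windows are coding exon sequence, 60 bases from base 220 of both RPS9 coding sequences, base 22 of RPS14A, base 25 of RPS14B, base 43 of both RPS22 and base 46 of both RPL7 coding sequences.
RPS9A: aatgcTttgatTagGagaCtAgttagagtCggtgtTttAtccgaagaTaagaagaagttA
RPS9B: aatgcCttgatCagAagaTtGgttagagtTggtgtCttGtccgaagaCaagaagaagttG
RPS14A: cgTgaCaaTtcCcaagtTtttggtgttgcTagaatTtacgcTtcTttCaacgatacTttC
RPS14B: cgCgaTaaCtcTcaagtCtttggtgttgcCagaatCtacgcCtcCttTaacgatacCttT
RPS22A: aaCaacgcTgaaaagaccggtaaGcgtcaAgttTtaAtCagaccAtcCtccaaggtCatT
RPS22B: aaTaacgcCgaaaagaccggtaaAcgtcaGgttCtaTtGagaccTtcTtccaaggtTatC
RPL7A: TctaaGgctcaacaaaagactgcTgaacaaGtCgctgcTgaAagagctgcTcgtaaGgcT
RPL7B: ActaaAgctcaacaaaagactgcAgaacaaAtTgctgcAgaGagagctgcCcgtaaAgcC

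The pairs differ in how well reads can tell their copies apart. The coding sequences were identical at 89.6% of aligned bases for RPS22, 91.8% for RPS9, 92.8% for RPS14 and 96.7% for RPL7. The labels give runs of 50 cycles. Of the 50-base stretches of copy A, none of 344 was also in copy B for RPS22, 27 of 545 (4.95%) for RPS9, 43 of 365 (11.8%) for RPS14 and 390 of 686 (56.9%) for RPL7, whose longest identical run was 245 bases. How the authors assigned reads that match both copies is not given in the sources used here, so the values of RPL7A and RPL7B, which share more than the other pairs, are the least certain as values of single copies.

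The copies also differ in their introns. RPS22A has no intron in its coding sequence, RPS9A, RPS9B, RPS14A, RPS14B and RPS22B have 1 each, and RPL7A and RPL7B have 2 each. The 3′ end of each of these introns is printed below from 7 bases before the branch-point letters to the last base, with the match in capitals. This stretch is where the spliceosome selects the branch point and the 3′ splice site. Introns outside coding sequences were not searched, so the printed RPS22B intron may not be the one with the Rnt1 site. TACTAAC, the yeast branch-point consensus, was searched on the coding strand in the last 100 bases of all 308 annotated introns within coding sequences, and 72.4% held it. Where it was missing, the shorter CTAAC, which lies inside it and which 257 introns (83.4%) held, is in capitals instead.
RPS9A, XVI 404957 to 405457: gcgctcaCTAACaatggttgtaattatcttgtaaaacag
RPS9B, II 604515 to 604927: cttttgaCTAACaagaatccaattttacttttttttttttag
RPS14A, III 177907 to 178213: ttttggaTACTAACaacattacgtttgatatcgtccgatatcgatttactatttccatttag
RPS14B, X 73797 to 74204: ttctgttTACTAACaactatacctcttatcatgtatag
RPS22B, XII 856575 to 857057: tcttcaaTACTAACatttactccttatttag
RPL7A first intron, VII 365527 to 365985: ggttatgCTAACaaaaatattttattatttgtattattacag
RPL7A second intron, VII 364965 to 365432: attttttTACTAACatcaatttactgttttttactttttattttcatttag
RPL7B first intron, XVI 173163 to 173571: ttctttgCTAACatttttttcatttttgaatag
RPL7B second intron, XVI 173666 to 174072: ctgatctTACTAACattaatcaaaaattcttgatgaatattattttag

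The full consensus stood in the introns of RPS14A, RPS14B and RPS22B and in the second introns of both RPL7 genes, and only the shorter letters in both RPS9 introns and the first introns of both RPL7 genes. The introns of RPS9A, RPS9B and RPS14B opened with GTACGT, and the other introns of the set with GTATGT. These matches describe letters, not measured splicing, and the tables do not separate spliced from unspliced RNA.

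In most strains the 8 genes stayed close to their own medians. The median over 328 strains was -0.45 for RPS9A, 0.01 for RPS9B, 0.07 for RPS14A and -0.61 for RPS14B. It was -0.003 for RPS22A, 0.33 for RPS22B, 0.06 for RPL7A and -0.65 for RPL7B. Medians within the library groups described below ran from -1.06 to -0.29 for RPS14B and from -0.16 to 0.67 for RPS22A. For RPS22B they ran from 0.31 to 0.36. A median away from 0 is therefore not always shared by all strains. Where it is shared, a trait of deletion strains cannot be told apart from a trait of the wild type sample they are all divided by. The SD over strains was 0.50 for RPS9A, 0.29 for RPS9B, 0.37 for RPS14A, 0.39 for RPS14B, 0.38 for RPS22A, 0.38 for RPS22B, 0.23 for RPL7A and 0.38 for RPL7B. The median SD was 0.473 over all 4499 genes tested and 0.319 over ribosomal protein genes, so RPS9A alone of the 8 had an SD above that of the median gene, and RPL7A and RPS9B had SDs under that of the median ribosomal protein gene. Without the strain lacking RPS9B, the SD of RPS9A was 0.464, under that of the median gene.

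**Figure D1:**
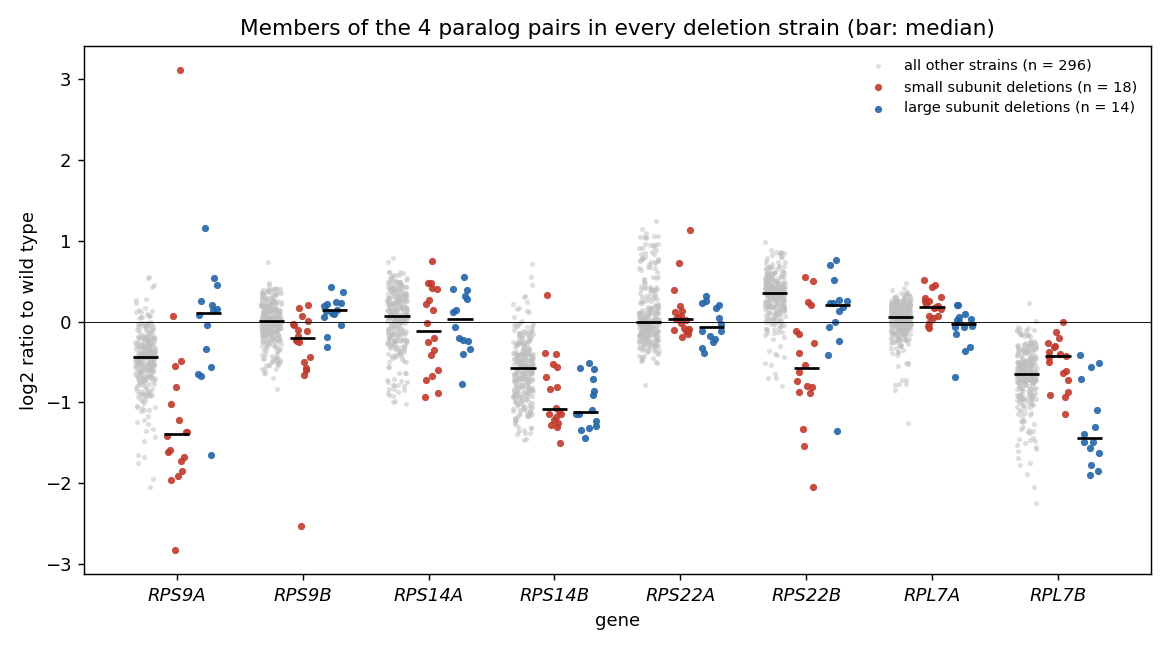
Log2 ratio to wild type (vertical axis) of the 8 genes (horizontal axis) in each of 328 strains; points are strains, bars medians, grey the 296 strains with no ribosomal protein deletion, red 18 small and blue 14 large subunit deletions. RPS9A and RPS22B reach their lowest values, -2.83 and -2.05, among the red points, most blue points of RPL7B lie under its grey median, and the lone red point at 3.12 is RPS9A in the strain lacking RPS9B.

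A gene was counted as moved in a strain when it lay at least 1 log2 unit, a 2-fold change, from its median over strains. The 8 genes moved higher in 16 of 2624 values and lower in 41, which are 0.61% and 1.56%, against 2.13% and 2.63% over all genes tested and 0.743% and 0.575% over the other ribosomal protein genes. Small subunit deletions held 8 of the 15 lower moves of RPS9A and 8 of the 12 of RPS22B. Values in ribosomal protein deletions chose the set, so nothing is read from the comparison with other genes. Most genes had moves in 1 direction. RPS9A was higher in 3 strains and lower in 15, RPS22B was lower in 12, RPL7B in 9, RPS14A in 3, RPL7A in 1 and RPS9B in 1, all with no strain higher, while RPS22A was higher in 10 and RPS14B in 3 with no strain lower. From the median of its own library group RPS14B was higher in no strain and lower in 1, and at a limit of 0.7 it was higher in 12 and lower in 14, so its direction depends on how a move is counted. Opposed movement, for which the set is named, was rare among these 57 moves. The other copy stayed within 0.5 of its own median in 42, went the same way by at least 0.5 in 12, and went the opposite way by at least 0.5 in 3, which are RPS9A and RPS9B in the strain lacking RPS9B and RPS22B in the strain lacking RPS1B. In most of these moves, then, the other copy stayed within 0.5, a smaller limit than the 1 that defines a move. The same share was not counted for other pairs, and most values of these genes lie near their medians. It is therefore not read as a trait of these pairs.

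Libraries were split by their own values into 4 groups, a number that was set and not estimated. The groups were found without ribosomal protein genes and held 79, 73, 80 and 96 strains. The labels do not name these groups, and what they are is not known. They took 38.99% of the variance of the 2142 genes with a value in every strain, ribosomal protein genes included. The 2006 genes that formed the groups are among these, so part of this share was built in. Groups 1 to 4 held 4, 3, 2 and 9 small subunit deletions and 3, 4, 1 and 6 large subunit deletions. Every difference of the large subunit deletions within group 3 is therefore that of 1 library. Among the 32 strains without a ribosomal protein gene, those labelled RPS10B, RPS16A, RPS19B, RPS1A and RPL19B did not have that gene lowered by 0.5 or more, and those labelled RPS24A, RPS27B and RPP1A had a whole chromosome shifted by over 0.4, none of which carries one of the 8 genes.

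RPS9A and RPS9B encode the same small subunit protein, which helps to keep decoding accurate. In the strain lacking RPS9B, RPS9B stood at -2.53, its lowest value in the series, and RPS9A at 3.12, its highest. The next highest RPS9A value was 1.16, in the strain lacking RPP2B, a protein of the ribosomal stalk. This is 1 library with no replicate, and the strain lacking RPS9A was not analysed here.

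In the other small subunit deletions RPS9A lay low. Its lowest values were -2.83 without RPS1B, -1.96 without RPS27B, -1.92 without RPS23A, -1.85 without RPS11A and -1.73 without RPS30A. It stood between -1.67 and -1.02 in 8 more of them, those labelled RPS29A, RPS18B, RPS4B, RPS28B, RPS21A, RPS30B, RPS24A and RPS1A. The highest were 0.07 in the library labelled RPS16A, -0.49 without RPS25A, -0.54 in that labelled RPS19B and -0.81 in that labelled RPS10B. Values of 16 of the 18 strains lay under the reference median of -0.43, and the exceptions were RPS9B and RPS16A.

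The mean of RPS9A was -1.12 ± 1.25 (SD, n = 18) in small subunit deletions and -0.47 ± 0.37 (SD over the reference strains) in the reference, a difference of -0.65. Without the strain lacking RPS9B it was -0.90 (n = 17). Within library groups 2, 3 and 4 the difference was -1.04, -1.05 and -0.88, and within group 1, which holds the strain lacking RPS9B, it was 0.39. RPS9B differed by -0.19 in the same class without its own strain, from values between -0.66 and 0.20, and by -0.10, -0.09 and -0.23 within groups 2, 3 and 4. Across all genes 2.51% were called in this contrast by limma, and since the contrast chose these genes nothing is read from that share.

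In large subunit deletions RPS9A lay high in most strains and low in a few. It reached 1.16 without RPP2B, 0.53 without RPL37A and 0.46 without RPL19A, stood between -0.04 and 0.26 in 6 strains, and was -0.34 without RPL16B, -0.56 without RPL8A, -0.65 without RPL29 and -0.67 in the library labelled RPL19B. The lowest value was -1.65 without RPL21B, whose gene starts 591 bases from the end of RPS9A, so the strain was also left out. The mean was -0.06 ± 0.68 (SD, n = 14), higher than the reference by 0.40, or by 0.53 without the strain lacking RPL21B, and 10 of 14 strains lay above the reference median. Within library groups the difference was 0.81, 0.39, 0.75 (1 strain) and 0.15. RPS9B was higher by 0.13, and by 0.07, 0.12, 0.18 and 0.20 within the groups.

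Outside the ribosomal classes, RPS9A moved lower in 6 strains. They lacked YDR024W (-2.04), UME6 (-1.94), a repressor of meiotic genes, VPS24 (-1.75), of the endosomal sorting complex, PHO5 (-1.68), an acid phosphatase, CDC73 (-1.65), of the Paf1 elongation complex, and YNL120C (-1.48). RPS9B lay within 0.5 of its own median in all 6. The single higher one lacked SLM6 (0.56).

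RPS22A and RPS22B encode an early-binding small subunit protein. In small subunit deletions the mean of RPS22B, the copy with an intron, lay under the reference, and that of the intronless RPS22A did not. In these small subunit deletions RPS22B was lowest without RPS1B (-2.05), RPS27B (-1.54) and RPS11A (-1.32). It stood between -0.88 and -0.53 without RPS24A, RPS23A, RPS18B, RPS29A, RPS4B, RPS30A and RPS28B, and at -0.39, -0.27, -0.16 and -0.12 in the libraries labelled RPS21A, RPS30B, RPS1A and RPS9B. The 4 highest values were 0.55 without RPS25A and 0.50, 0.24 and 0.20 in the libraries labelled RPS16A, RPS19B and RPS10B, the last 3 of which did not have their deleted gene lowered.

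RPS22B was -0.53 ± 0.69 (SD, n = 18) in small subunit deletions and 0.33 ± 0.28 (SD over the reference strains) in the reference, a difference of -0.86, with 16 of 18 strains under the reference median. Leaving out the 4 libraries in which the labelled gene was not low made it -1.07. Within the 4 library groups it was -0.50, -1.15, -1.10 and -0.89. RPS22A was 0.11 ± 0.34 in the same strains against 0.10 ± 0.40, a difference of 0.01. Within the library groups RPS22A was higher by 0.10, 0.17, 0.30 and 0.14, and by 0.15 with the library group as a term. In the small subunit deletions the A minus B difference of this pair stood 0.87 above its reference, the largest in size of 59 ribosomal protein pairs. In the large subunit deletions it stood 0.11 above its reference and ranked 32nd. These contrasts chose the set, so nothing is read from the ranks.

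The spread of RPS9A and RPS22B among small subunit deletions was shared. Over the 17 strains with RPS9B intact, Pearson's r between them was 0.94 and Spearman's rho 0.88. Pearson's r was 0.91 without those farthest from the RPS9A median, the strain lacking RPS1B and the library labelled RPS16A. An r without all libraries whose labelled gene was not lowered was not computed. In large subunit deletions the sign was the other way, with r = -0.76 (rho = -0.75, n = 14), and -0.56 without the strains lacking RPL21B and RPP2B. Over all 328 strains r was 0.35. These are descriptions over strains that share 1 wild type reference, and both genes had a part in choosing the set.

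**Figure D2:**
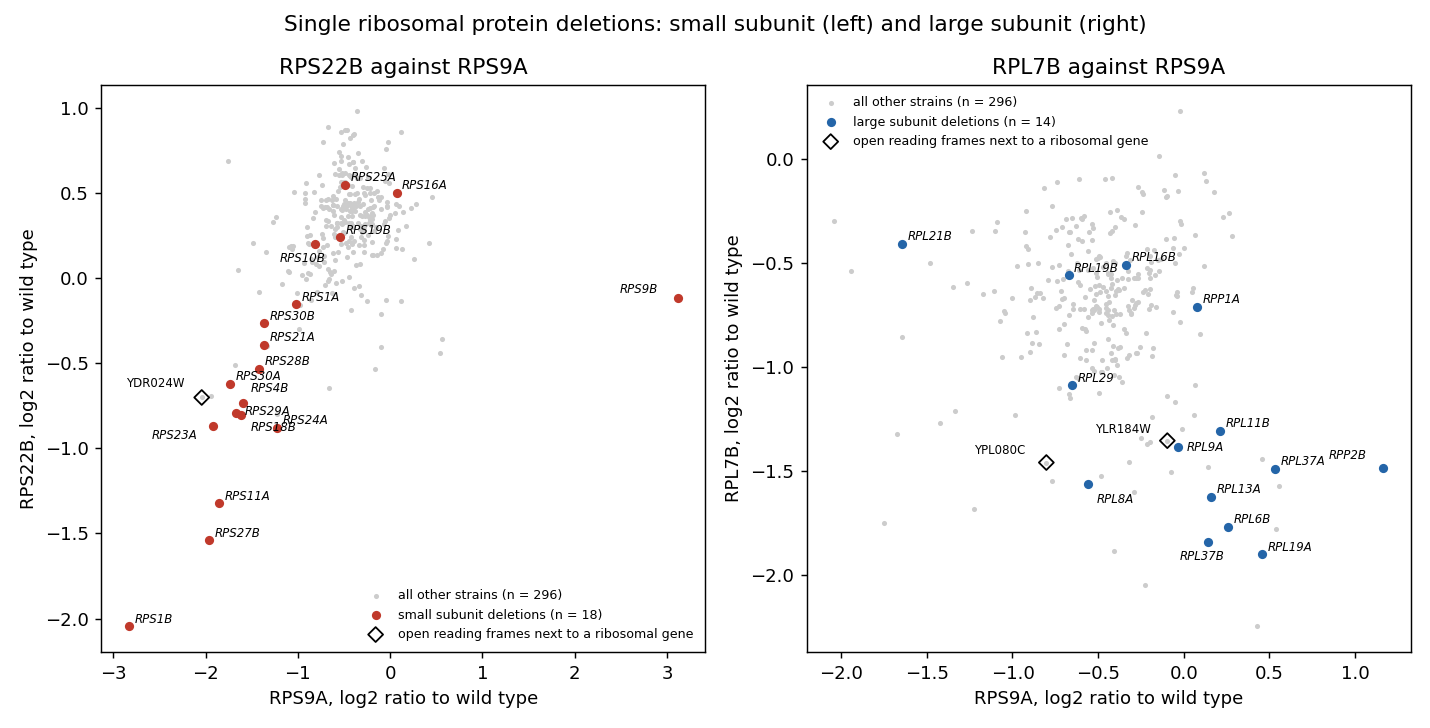
Left, RPS22B (vertical axis) against RPS9A (horizontal axis), and right, RPL7B against RPS9A, both as log2 ratio to wild type; grey points are strains with no ribosomal protein deletion, red and blue points single small and large subunit deletions with the deleted gene beside them, and diamonds deletions of open reading frames next to a ribosomal protein gene. On the left the red points run from the grey cloud down to RPS1B at -2.83 and -2.05, with RPS9B apart at 3.12, and on the right most blue points lie under -1 for RPL7B.

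RPS22B moved lower in 1 large subunit deletion, that of RPP2B (-1.36), where RPS9A was at 1.16. Of the 3 others, 1 lacked HMO1 (-0.80), an HMG-box protein that binds ribosomal protein promoters and rDNA, and the rest lacked YDR024W (-0.70) and UME6 (-0.69). RPS22A stood at 0.20, 0.09 and 0.11 in these 3 strains. The same 3 deletions held RPS9A at -1.22, -2.04 and -1.94.

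RPS22A moved higher in 10 strains, up to 1.24 without the ubiquitin protease UBP12, 1.14 without the prenyl protein protease STE24 and 1.13 without RPS25A. All 10 libraries were in library group 3, where the median of RPS22A was 0.67 against -0.12, 0.03 and -0.16 in groups 1, 2 and 4. Measured from the median of its own library group, RPS22A moved in no strain. The lowest values of RPS22A were -0.79 without THP1, -0.51 without DAL81, -0.49 without MOG1 and -0.48 without SAC3.

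RPL7A and RPL7B encode a large subunit protein, and copy B was the more variable. In large subunit deletions RPL7B was -1.90 without RPL19A, -1.84 without RPL37B, -1.77 without RPL6B, -1.63 without RPL13A and -1.57 without RPL8A. It stood between -1.49 and -1.09 without RPL37A, RPP2B, RPL9A, RPL11B and RPL29, and at -0.71, -0.56, -0.51 and -0.41 in those labelled RPP1A, RPL19B, RPL16B and RPL21B. RPL7A ranged from -0.68 to 0.20 in the same strains.

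The mean of RPL7B was -1.26 ± 0.52 (SD, n = 14) against -0.68 ± 0.36 (SD over the reference strains), a difference of -0.58, and 11 of 14 strains lay under the reference median. Within library groups it was -0.62, -0.56, -1.20 (1 strain) and -0.44. RPL7A differed by -0.10, and by -0.08, -0.14, 0.06 and -0.02 within the groups. In small subunit deletions both copies lay a little higher, by 0.17 each and in all 4 library groups (0.12 to 0.23 for RPL7A, 0.07 to 0.30 for RPL7B), and their difference was the same as in the reference (0.70 against 0.71). The contrast of large subunit deletions called 0.244% of all genes, and the difference of the copies there, 0.48 above the reference, ranked 3rd in size of 59 pairs. Since this contrast chose the set, nothing is read from that share or rank.

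Ribosome assembly deletions were not among the contrasts that chose the set, but were compared with the same reference strains. RPL7B stood at -1.51 without NOP12, -1.48 without JJJ1, -1.44 without PIH1, -1.17 without SSF1, -0.89 without TSR2, -0.80 without BUD27 and -0.50 without TMA23. NOP12, JJJ1 and SSF1 act in the assembly of the large subunit, and TSR2 is a chaperone for a small subunit protein. The mean, -1.11 ± 0.39 (SD, n = 7), was lower than the reference by 0.43 ± 0.14 (SE) in 6 of 7 strains, which did not pass the threshold (limma adjusted p = 0.4001, 0.329 to 0.996 under the other settings), where 0.0667% of all genes were called. The A minus B difference was higher by 0.36 ± 0.13 (SE, limma adjusted p = 0.137), and passed only without the strain lacking TMA23 (adjusted p = 0.0398, range 0.0398 to 0.592 over the strains left out). Of the other large subunit protein genes, 1 of 79 passed in this class, RPL8A, which fell by 0.55 ± 0.13 (SE, n = 7, limma adjusted p = 0.0255).

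The strongest RPL7 value in the series came from a single strain in which both copies were low. Without HPM1, the histidine methyltransferase of the large subunit protein Rpl3, RPL7A was -1.25 and RPL7B -2.25, the lowest of all strains for both. In other strains outside the ribosomal classes, RPL7B moved while RPL7A did not reach 1 unit. Among them it was -2.05 without KRE28, of the kinetochore, -1.89 without RFU1, of ubiquitin turnover, -1.75 without VPS24 and -1.68 without HMO1, where RPL7A was 0.26, -0.55, 0.20 and 0.09. The highest RPL7B value was 0.23 without DAL81, an activator of nitrogen catabolic genes.

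RPS14A and RPS14B encode a protein of the small subunit platform. RPS14B, the copy whose splicing Rps14 is known to block, was -1.01 ± 0.32 (SD, n = 14) in large subunit deletions and -0.59 ± 0.35 (SD over the reference strains) in the reference, lower by 0.42, with 13 of 14 strains under the reference median. Its lowest values there were -1.45 without RPL11B, -1.34 without RPL9A and -1.32 without RPP2B, and the highest -0.51 without RPL8A. RPS14A differed by -0.04. Within library groups, of which group 3 holds 1 of these strains, RPS14A was higher by 0.09, 0.06, 0.16 and 0.07. With the library group as a term it was higher by 0.08. Within library groups RPS14B differed by -0.54, -0.34, -0.63 and -0.15. In small subunit deletions RPS14B lay lower by 0.30 and RPS14A by 0.14, and with the library group as a term these became -0.17 and 0.01. Of the 18 strains 9 were in group 4, and within the groups RPS14B differed by 0.04, -0.26, -0.24 and -0.22.

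Both RPS14 copies followed the library groups. Group 4 had a median of -0.35 for RPS14A and -1.06 for RPS14B, and group 1 of 0.41 and -0.29. All 3 splicing deletions were in group 4. In them RPS14B was -1.46 without IST3, -1.45 without BRR1 and -1.36 without DBR1, lower than the reference by 0.83 ± 0.21 (SE, n = 3), which did not pass the threshold (limma adjusted p = 0.0685, 0.0566 to 0.794 under the other settings). With the library group as a term the difference was -0.42. IST3 and BRR1 act in pre-mRNA splicing and DBR1 debranches introns. RPS14A was -1.02, -0.26 and -0.43 in the same order, and RPS22B -0.65, -0.54 and 0.54.

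**Figure D3:**
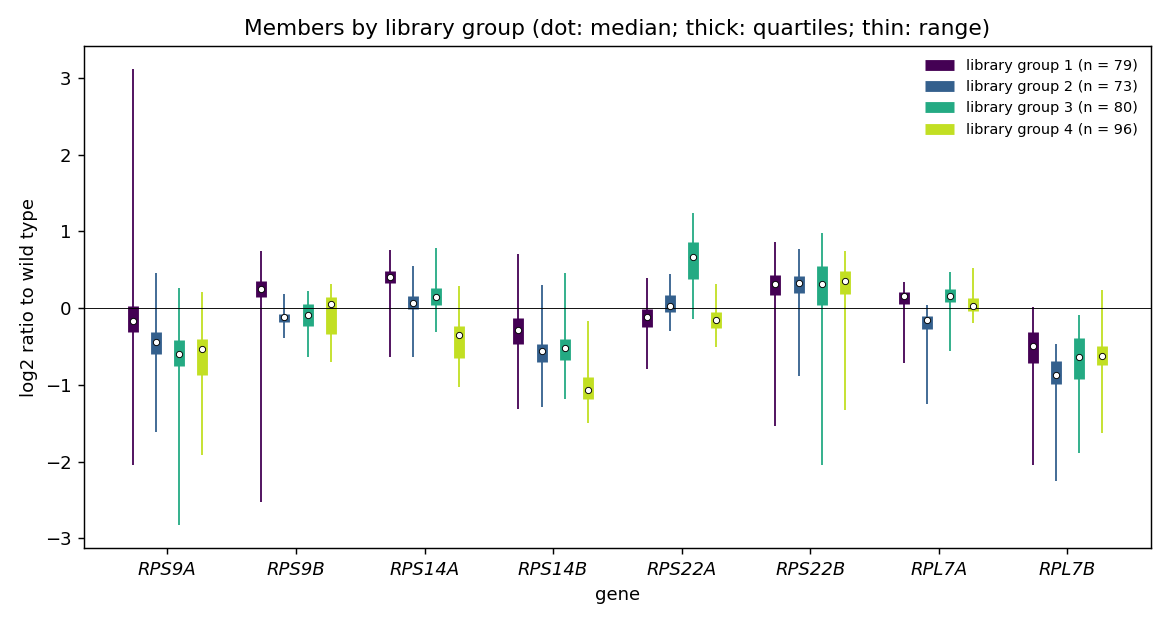
Log2 ratio to wild type (vertical axis) of the 8 genes (horizontal axis) within the 4 library groups; dots are medians, thick bars quartiles and thin lines the full range over the strains of a group. RPS22A stands apart in group 3, at a median of 0.67, and RPS14A and RPS14B in group 4, at -0.35 and -1.06, while the RPS22B medians lie between 0.31 and 0.36.

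The deletions of the Elongator and URM1 pathways, which modify the wobble uridine of some transfer RNAs, had the RPS14 copies closer to each other than the reference did. RPS14B was 0.55 without ELP2, 0.17 without IKI3, 0.13 without URM1, -0.17 without UBA4, -0.47 without ELP6 and -0.63 without KTI12. RPS14A was 0.48, 0.24, 0.17, -0.30, 0.40 and -0.75 in the same order. In 5 of the 6 strains the copies stood within 0.13 of each other, while in the reference RPS14A was higher by 0.63 ± 0.31 (SD over the reference strains).

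The A minus B difference of RPS14 was 0.11 ± 0.39 (SD, n = 6) and fell by 0.52 ± 0.13 (SE) against the reference, in 5 of 6 strains (limma on 59 pairs, adjusted p = 0.00476). It was the only pair of the 59 called in this class (1.69%), and the only call among the 32 tests of these 4 pairs over the 8 non-ribosomal classes. Of all 59 pairs, 8 were called in the splicing class and 1 each in the assembly and RNA decay classes. None was called in the elongation, Mediator, chromatin and mitochondrial classes. The 1 call among 32 tests is therefore not read as particular to these pairs. The RPS14 difference kept its side of the threshold in each setting other than leaving out strains (adjusted p 0.000373 to 0.00559). Without the strain lacking UBA4 it became -0.47 with an adjusted p of 0.0619, and without that lacking KTI12 -0.48 with 0.0562. Without ELP6, whose strain stood apart at 0.88, it became -0.68. RPS14B alone was higher by 0.53 ± 0.15 (SE, limma adjusted p = 0.549), and by 0.55 ± 0.10 with the library group as a term, where it passed (limma adjusted p = 0.000627). The difference between the copies had a part in choosing the set in the ribosomal protein deletions, against the same reference strains. The set and the tests were chosen with earlier results of these data known. The RPS14 call is therefore not independent of that choice.

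Over the 8 non-ribosomal classes, none of the 64 tests of a single gene passed the threshold in limma over all genes, and 6 had an unadjusted p under 0.05. The 6 were RPS14B in the Elongator and splicing classes, RPS14A and RPS22B in the splicing class, and RPL7B in the assembly and mitochondrial classes. How many of all genes passed that unadjusted cut was not counted, so nothing is read from the 6. The share of genes called was 0.0667% in the assembly, splicing, decay, elongation and Mediator classes and 0.0% in the Elongator, chromatin and mitochondrial classes, so few genes of any kind passed. With the library group as a term the RPS22 difference also passed in the splicing class, at 0.77 ± 0.19 (SE, n = 3, limma adjusted p = 0.00506), from 0.44 (adjusted p = 0.261) without it. The 0.44 became 0.06 without IST3 and 0.87 without DBR1, whose strain had RPS22B at 0.54 against -0.65 and -0.54 in those lacking IST3 and BRR1. In that class 8 of 59 pairs (13.6%) were called without the term, and none of these 4 was among them.

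Other genes of the ribosome and its control gave few calls in these classes. RPL8A was the only one called of the other ribosomal protein genes, 50 of the small and 79 of the large subunit. A list of 16 measured regulators, which holds activators and repressors of ribosomal protein genes and factors of splicing and RNA decay, had no member called in any of the 8 classes. Strains lacking a regulator of that list were single libraries. Without HMO1, RPS22B (-0.80) and RPL7B (-1.68) lay over 1 unit under their medians and RPS9A (-1.22) less than that, while their partners RPS9B, RPS22A and RPL7A stood at 0.37, 0.20 and 0.09, and RPS14A and RPS14B at 0.73 and -0.41. Without TOD6, a repressor of ribosome biogenesis genes, the 8 values ran from -0.84 to 0.34, and each lay within 0.5 of its median.

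In the 5 RNA decay deletions no gene of the set passed. RPS14B was 0.06 without LRP1, -0.18 without LSM6, -0.31 without RRP6, -0.40 without XRN1 and -0.56 without PAT1, above the reference median in 5 of 5 strains. The mean was -0.28 ± 0.23 (SD, n = 5), higher than the reference by 0.32 ± 0.16 (SE, limma adjusted p = 0.758). Without LRP1, a cofactor of the nuclear exosome, RPS9A was -0.98, RPS22B -0.30 and RPL7B -1.23, and these and RPS14B lay over 0.5 from their medians. Without the exonuclease XRN1 RPS9A was -0.84, RPS22A 0.49 and RPL7B -0.89, and without the nuclear exosome subunit RRP6 RPL7B was -1.03, each within 0.5 of the gene's median. Without DBR1, RPS22B was 0.54, and without IST3 it was -0.65. RPS9B and RPS14A were both low without IST3, at -0.70 and -1.02, and the latter is its lowest value of all strains.

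The copies of a pair followed each other to different degrees over 328 strains. Pearson's r was 0.61 for RPS14 (Spearman's rho 0.65), 0.46 for RPL7 (0.45), 0.14 for RPS9 (0.42) and 0.13 for RPS22 (0.09), where the median of 59 ribosomal protein pairs was 0.269. Without the strain lacking RPS9B, r of the RPS9 pair was 0.41. With the mean of each library group subtracted, r became 0.03 for RPS14 and stayed at 0.36 for RPL7. None of the 4 pairs had a negative r over all strains. The lowest were those of RPL12 (-0.72) and RPL35 (-0.53), which are not in the set. All values share the wild type reference, and for RPL7 the copies share much of their sequence too.

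**Figure D4:**
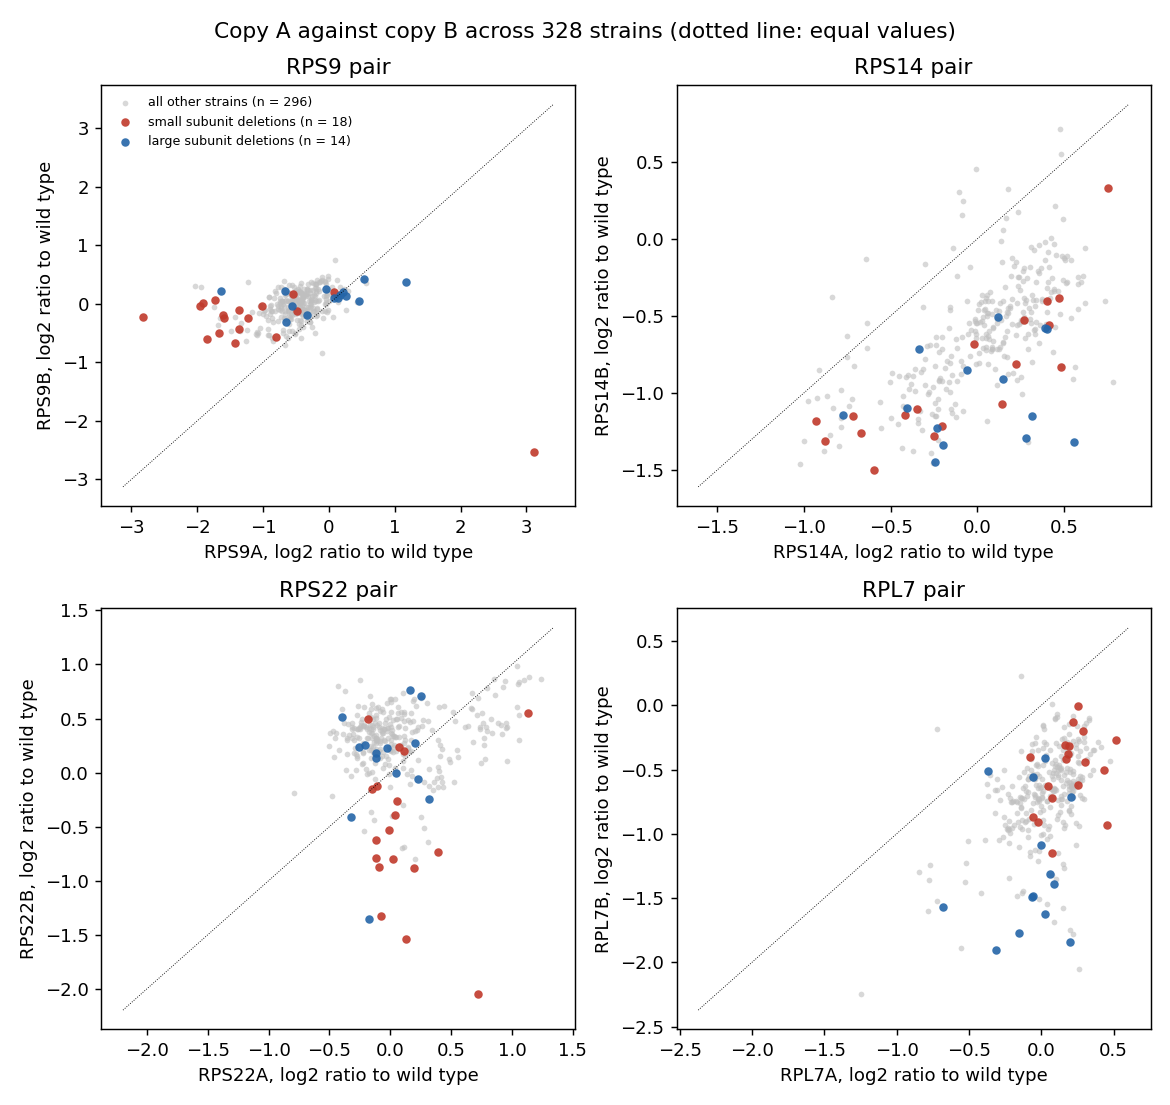
Copy B (vertical axis) against copy A (horizontal axis) of each pair as log2 ratio to wild type over 328 strains, with equal values on the dotted line; grey points are strains with no ribosomal protein deletion, red small and blue large subunit deletions. The RPS14 points run along a diagonal (r = 0.61), red points reach low in RPS22B and blue points in RPL7B, and RPS9 has the strain lacking RPS9B alone at 3.12 and -2.53.

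The copies parted by at least 1 log2 unit from their median difference in 15 strains for RPS22, 12 for RPS9, 8 for RPL7 and 6 for RPS14, where the median pair did so in 5. For RPS22 copy B was the lower in all 15 relative to copy A, among them 7 small subunit deletions, the RPP2B deletion and those of HMO1, IST3, UME6 and YDR024W. Without SEC66 and RFU1 it was RPS22A that lay high, at 0.96 and 1.05, with RPS22B at 0.11 and 0.30. Both libraries are in library group 3, where RPS22A had a median of 0.67. The strain lacking RPP2B parted 3 of the pairs, with RPS9A at 1.16 against RPS9B at 0.37, RPS14A at 0.56 against RPS14B at -1.32 and RPS22A at -0.18 against RPS22B at -1.36. That lacking GSH1, which makes a glutathione precursor, parted RPS9, RPS14 and RPL7, with copy B of RPS9 at -0.83, and copy A of RPS14 and RPL7 lower than usual at -0.64 and -0.72.

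The genes whose values were most like each member over 328 strains differed between the copies of RPS9, RPS22 and RPL7. Those nearest to RPS22A were RPS30A (r = 0.87), RPL23B (0.85) and RPS18A (0.84), and those nearest to RPS22B were RPS1B (0.42), POB3 (0.35) and YDL085C-A (0.35). RPS9A was nearest to HIS1 (0.47), YHR112C and SSP120, and RPS9B to SPE3 (0.60), RSC8 and NOP58. RPS14A and RPS14B had the same 3, RPL26A (0.86 and 0.65), RPL5 (0.84 and 0.68) and ARF1 (0.80 and 0.65). RPL7A was nearest to RPL1B (0.67), RPL36B and RPL24B, and RPL7B to RPL9B (0.60), RPL8A (0.53) and RPS24B (0.40). With library group means subtracted, RPS14B had no gene above 0.29, while RPS22B kept RPS1B (0.43) and RPL7B kept RPL8A (0.58) and RPL9B (0.56).

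A few deletions of unnamed open reading frames that lie next to a ribosomal protein gene had that gene low too. They were picked after their values were seen. The strain lacking YDR024W had RPS11A at -2.77, with RPS9A at -2.04, RPS22B at -0.70 and RPS22A at 0.09, where the RPS11A deletion had -1.85, -1.32 and -0.08. That lacking YPL080C, which lies between RPS9A and RPL21B, had RPL21B at -2.23, RPL7B at -1.46 and RPS14B at -1.39. RPL7B, RPS14B and RPS9A were -0.41, -0.71 and -1.65 in the RPL21B deletion, and RPS9A was -0.80 in that of YPL080C. That lacking YLR184W had RPL37A at -0.81 and RPL7B at -1.36, against -1.49 in the RPL37A deletion. These 3 strains were counted among the reference deletions, and each is 1 library.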

How the data were processed

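PolyA RNA was sequenced for 50 cycles on an Illumina instrument, per the labels' protocols. The deposited values are log2 ratios of each strain to wild type, per the series design, in 2 tables of 255 and 73 strains. The log base, which is not written, is taken as 2: 1 chromosome lay 0.958 above the rest of its strain, and an extra copy gives at most 0.693 on a natural and 0.301 on a decimal scale. Bowtie is named in the submitters' processing notes; its version, the build, how reads were counted and how depth was scaled are not given in the sources, and depth per library is unknown. Nothing says that strains came from separate cultures handled apart. The p-values rest on the spread between strains within groups, pooled over all groups, and not on that of 1 class.

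The second table has no gene column and was matched to the first by row position: gene means correlated at 0.979 with no offset and at most at 0.0463 with offsets of up to 5 rows, and no offset was best in 66 of 66 windows of 100 rows. The 4499 genes measured in 80% of strains or more (4420 matched RefSeq) were tested, and missing values stayed missing. The classes, which follow the function of the deleted gene, were compared with the other deletions by limma 3.58.1 in R 4.3.3, with 1 spread per gene over all groups and Benjamini-Hochberg adjustment over all genes, at a threshold of 0.05. A separate limma fit used the A minus B differences of 59 ribosomal protein pairs. Small and large subunit deletions chose the members, so no p-value is given for them. Library groups came from a Gaussian mixture on 4 principal components of 2006 genes with a value in every strain and no ribosomal protein gene (10 starts, scikit-learn 1.9.0). Sequences were read by gene name from the RefSeq R64 genome, whose build may differ from the authors'. Scripts ran in Python 3.11.15 and were tested on simulated shifts. Figures used matplotlib 3.10.9.

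The members, gene lists, classes, tests and settings were chosen with earlier results of these data known. Named strains are the 4 highest and 4 lowest of each gene, those past 1 log2 unit, and those of the regulator list. Named genes alike are the 3 with the highest Pearson's r. Of the other ribosomal protein genes and pairs, called members and the 2 pairs with the lowest r are named. A few results that this rule would name are not reported here. Strains named outside this rule were picked for their values. Leaving out libraries whose deleted gene was not lowered, and the strain lacking RPL21B, was added after the values were seen.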

Additional observations from a re-analysis of the deposited data

Results flagged for a closer look

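In classes of 5 to 7 strains, 60 sets of values (8 genes and 4 A minus B differences in 5 classes) were searched for a strain whose gap to the nearest other, over the range of the class, passed Dixon's limit. Chance flags about 1 in 20 sets, and 8 were found. In elongation deletions the strain lacking CTK1, a kinase of RNA polymerase II, stood highest for RPS14B (0.157, the next at -0.717) and RPS22A (0.380, the next at -0.0569) and lowest for the RPS14 difference (-0.245, the next at 0.564). In Mediator deletions the strain lacking SRB8, of the kinase module, stood lowest for RPS9B (-0.584, the next at 0.175) and highest for RPS22A (0.956, the next at -0.0190) and the RPS22 difference (0.536, the next at -0.418). The strain lacking ELP6 stood apart in the RPS14 difference of the Elongator and URM1 class (0.876, the next at 0.0627). In RNA decay deletions the strain lacking XRN1 was highest for RPS22A (0.494, the next at 0.107). The SRB8 library is in library group 3, where RPS22A had a median of 0.67, and the only one of its class there. The XRN1 library is in group 3 too, and its RPS22A value lies under that median. Whether the library group has a part in these values was not tested.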

How the results depend on the processing

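Of 518 values of the main comparisons recomputed under other settings, 17 moved past the limits set (1.5 times for a count, 1 SD of the class for a difference, the 95% interval for a correlation) and 2 correlations changed sign. A further 8 of 355 class differences, all of RPS14A or RPS22A, changed sign within 1 SD. With the library group as a term, 1 single gene (RPS14B, Elongator and URM1 class) and 2 pairs were called in place of 0 and 1. Leaving out 1 strain of a class gave 0 single genes each time and 0 to 2 pairs: 0 without UBA4 or KTI12, and 2 without TMA23. The correlation of the RPS9 copies, 0.14, was -0.016 after centring strains, -0.0014 with library group means subtracted, 0.385 without ribosomal protein deletions and 0.409 without the strain lacking RPS9B. That of RPS14 was 0.464 after centring and 0.0288 with group means subtracted, that of RPL7 0.548 and 0.363, and that of RPS22 0.277 after centring. The share of values moved higher, 0.61%, was 2.40% at a limit of 0.7, 0.0762% at 1.5 and 0.0762% from library group medians, and that moved lower, 1.56%, was 4.84% at 0.7 and 0.343% at 1.5. No paired analysis was possible because each strain has 1 library and the replicate numbers only name strains. Leaving out 1 strain moved the small subunit difference of RPS22B between -0.928 and -0.776 and of RPS9A between -0.903 and -0.553, and the large subunit difference of RPL7B between -0.645 and -0.530. Depth is unknown, which limits how firmly any single library can be read.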
